A study of Mus musculus with 12 samples.

Results

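The genes described here encode members of the Polycomb repressive complexes in mouse embryonic stem (ES) cells of the D3 line. They were chosen by symbol: Ezh2, Ezh1, Eed and Suz12 of the PRC2 core, Jarid2 and Mtf2 as PRC2 accessory proteins, and Rnf2, Bmi1, Phc1 and Cbx7 of PRC1. These are 10 of the 18194 genes that the platform annotation gives to at least 1 probe set with a single gene symbol. The 10 genes have 33 of the 34958 such probe sets, and 26 of the 33 passed the filter on low values. The probe set with the highest mean over the 12 arrays was taken as the main one of each gene, and all 10 main probe sets were among the 13067 genes tested.

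Each of the 12 Affymetrix arrays measured total RNA from one sample. Control day0 is undifferentiated ES cells with no agent. Control day8 is D3 cells differentiated as embryoid bodies with no agent and sampled at day 8, and BPA day8 and NP day8 are differentiated D3 cells of the same day with the agent that the labels call BPA or NP. Each group has 3 arrays, and cells of all groups had been grown on mouse embryonic fibroblasts treated with MMC, so RNA of those feeder cells may be part of a sample. The labels give no dose, no vehicle, no time at which an agent was added, and do not say whether the 3 samples of a group came from separate cultures, so p-values measure the spread between these samples, which may be technical. The title of the series gives its question as what chemicals do to ES cell differentiation.

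Polycomb proteins keep developmental genes silent by modifying histones. PRC2 places methyl groups on a lysine of histone H3 through Ezh2 or its paralogue Ezh1, and PRC1 adds ubiquitin to histone H2A through a RING-type E3 ligase. Cbx proteins of PRC1 can bind the mark that PRC2 leaves. In ES cells both complexes sit at the promoters of many lineage regulators, and the choice among paralogous subunits is known to shift as ES cells differentiate.

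Values are log2 of the deposited MAS5 signal, in which 1 unit is a doubling. Signals of 36 values from 3 bacterial control probe sets reached at most 3.41, and a signal at or below that level is called background here. On each array between 58.2% and 62.2% of the probe sets lay above it. Replicate arrays of a group correlated with each other at r = 0.938 to 0.951 across the 13067 genes tested, which are not independent replicates. All main probe sets of the 10 genes were above background on every array. ES cell markers matched the label of the control day0 arrays, with a mean log2 signal of 10.57 ± 0.03 (SD, n = 3) over 12 markers. Fibroblast markers were also high there, with a mean of 8.69 ± 0.20 (SD, n = 3) over 11 markers.

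Between control day0 and control day8 most of the Polycomb genes changed, and in both directions. Changes were tested with limma over all genes, with Benjamini-Hochberg adjustment and a threshold of 0.05. Of the 10 genes, 3 rose, 6 fell and Suz12 did not pass the test, while 48.7% of all genes tested changed in this comparison. The median change of the 10 was -0.80 on the log2 scale, beside 0.12 over all genes, and their median size of change was 1.15, beside 0.58. Values of control day0 and control day8 did not overlap for any of the 10 genes, as for 56.8% of all genes. The median of 0.12 over all genes became 0.01 after quantile normalization or median centring, and changes near that size are to be read against it.

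With BPA, 6 of the 10 genes were higher and Bmi1 was lower than in control day8, and 22.2% of all genes changed. That background rests on 2906 genes, and on 1822 without control day8 replicate 1. With NP, 6 were higher and Bmi1 was lower, and 14.2% of all genes changed. When only the compared groups were fitted, 3 of the 10 were higher and Bmi1 lower with NP. In that fit 645 of the 13067 genes tested changed with NP. The count of 1852 genes over the array fell to 802 or 1022 when replicate 1 or replicate 2 of control day8 was left out, and to 854 or 896 when replicate 2 or replicate 3 of NP day8 was. The median change of the 10 genes was 0.67 with BPA and 0.59 with NP, beside 0.04 and 0.01 over all genes. Both comparisons use the same 3 control day8 arrays, which are also those of the differentiation comparison, so their results are not independent of each other.

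**Figure D1:**
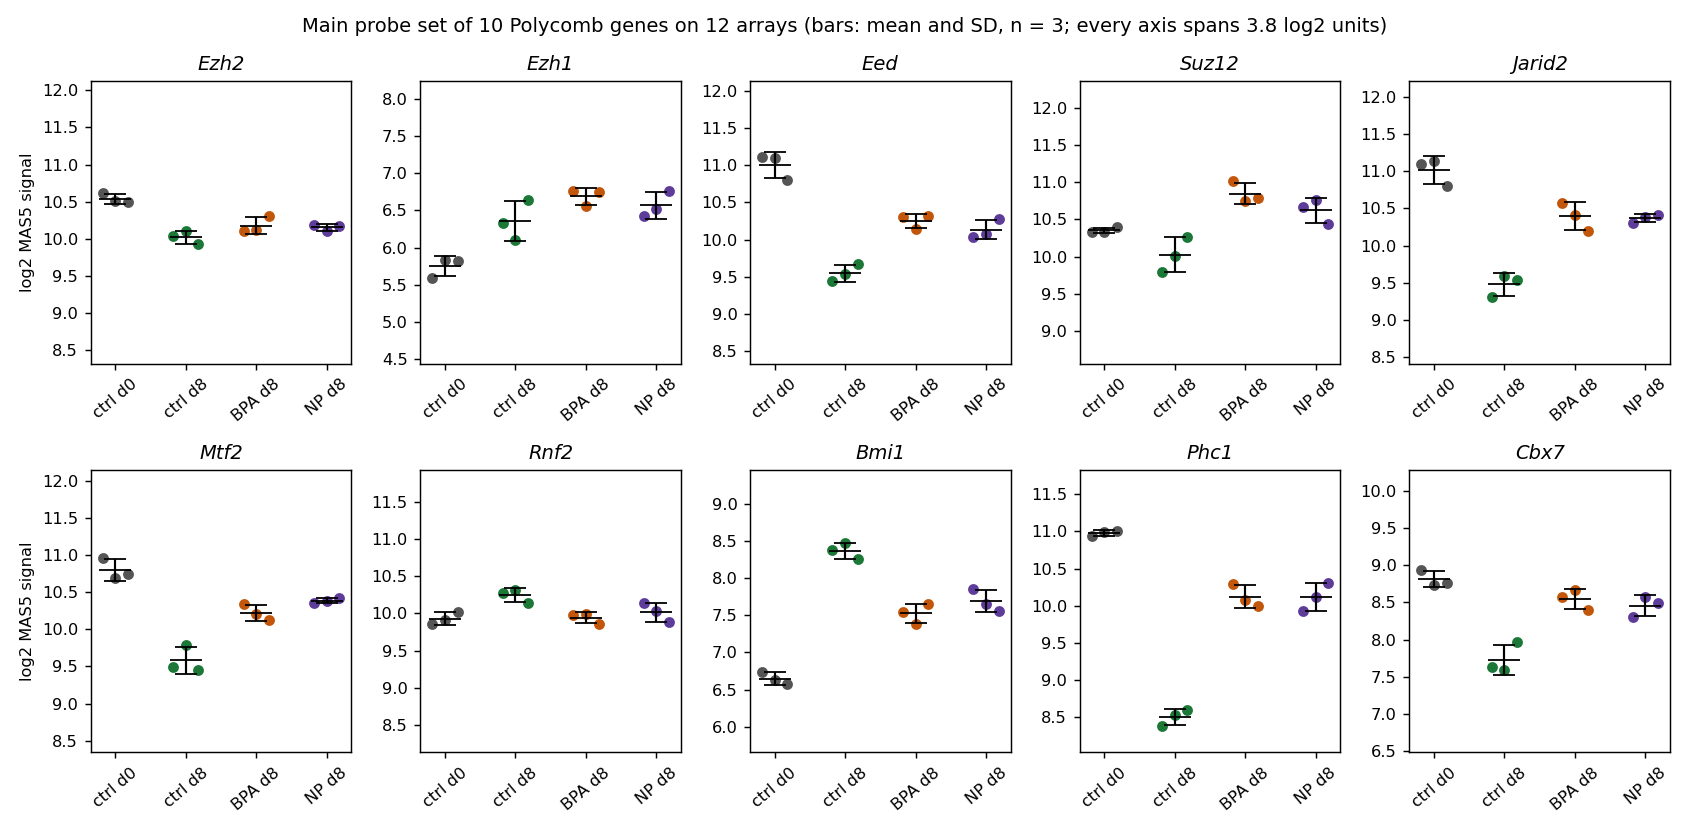
Log2 MAS5 signal of the main probe set of each of the 10 genes (y axis) on the 12 arrays, by group (x axis). Points are arrays, and black bars are the mean and SD of 3 arrays; every axis spans 3.8 log2 units around the mean of its gene. Phc1 was at 10.93 to 11.01 on the control day0 arrays and at 8.38 to 8.59 on the control day8 arrays, and Bmi1 rose from 6.57 to 6.74 at day 0 to 8.25 to 8.47 at day 8.

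PRC1 held the largest change in each direction among the 10 genes at day 8 without agent, and with either agent against control day8. Phc1 encodes a polyhomeotic protein, which can polymerize through its SAM domain. Its log2 signal was 10.93, 10.99 and 11.01 on the control day0 arrays and 8.38, 8.53 and 8.59 on the control day8 arrays. It was 10.30, 10.07 and 9.99 with BPA, and 9.93, 10.12 and 10.31 with NP. All arrays with an agent lay between the day 0 and the day 8 controls, without overlap with either. Phc1 fell by 2.47 ± 0.12 (SE) from day 0 to day 8, a 5.56-fold lower signal (adjusted p = 2.72e-06, limma), which was the 226th largest fall among the genes tested. It was higher than control day8 by 1.62 ± 0.12 with BPA (adjusted p = 0.000167, limma) and by 1.62 ± 0.12 with NP (adjusted p = 0.000255, limma). None of the alternatives run ended these 3 calls. The array has a single probe set for Phc1.

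Bmi1, also called Pcgf4, is a PRC1 subunit that partners the RING ligase, and it is known for holding down the cell cycle inhibitor locus Cdkn2a. Its signal was 6.74, 6.63 and 6.57 at day 0 and 8.38, 8.47 and 8.25 at day 8. It was 7.54, 7.38 and 7.65 with BPA, and 7.85, 7.65 and 7.56 with NP. The agent arrays again lay between both control groups, but here control day8 was the high end. Bmi1 rose by 1.72 ± 0.11 (SE), or 3.30-fold, from day 0 to day 8 (adjusted p = 7.64e-06, limma). It was lower than control day8 by 0.84 ± 0.11 with BPA and 0.68 ± 0.11 with NP, signed changes of -0.84 and -0.68 (adjusted p = 0.00125 and 0.00573, limma). A second probe set of Bmi1 rose by 2.22 and changed by -0.92 with BPA, and its change of -0.58 with NP did not pass the test (adjusted p = 0.0785, limma).

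The promoter windows of Bmi1 and Phc1 are shown because these genes moved farthest and in opposite directions. Each is 300 bases, from 250 before to 50 after the transcription start in RefSeq on GRCm38.p6, read 5′ to 3′ on the strand of the gene. The Bmi1 window is chr2:18676768-18677067, plus strand, and the Phc1 window is chr6:122340178-122340477, minus strand. Capitals mark the E-box letters CACGTG, which read the same on both strands.
Bmi1: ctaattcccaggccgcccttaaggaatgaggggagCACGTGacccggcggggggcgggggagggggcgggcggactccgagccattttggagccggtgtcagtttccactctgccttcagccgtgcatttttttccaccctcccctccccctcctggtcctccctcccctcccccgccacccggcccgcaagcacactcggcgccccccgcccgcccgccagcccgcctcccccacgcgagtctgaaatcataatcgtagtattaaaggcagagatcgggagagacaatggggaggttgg
Phc1: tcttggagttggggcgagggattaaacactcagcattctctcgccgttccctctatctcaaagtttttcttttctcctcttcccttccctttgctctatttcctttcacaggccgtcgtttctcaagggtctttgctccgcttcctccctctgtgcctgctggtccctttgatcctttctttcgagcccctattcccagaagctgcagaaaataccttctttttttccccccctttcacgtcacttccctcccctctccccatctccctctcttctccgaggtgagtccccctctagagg
Of 32851 such windows in the mouse table, 7.15% hold CACGTG, and among the 12 windows of the 10 Polycomb genes only that of Bmi1 does. The Phc1 window held none of the motifs searched. Its GC content is 52.0% with 9 CpG, against 66.3% with 23 CpG in the Bmi1 window and a median of 52.7% with 7 CpG over all windows. The octamer letters ATGCAAAT, searched on both strands, were in 1.74% of all windows and in none of the 12. A match or its absence describes letters in this window, and no binding was measured.

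Cbx7 is the chromodomain subunit of PRC1 known as the main Cbx protein of ES cells. Its signal was 8.93, 8.74 and 8.76 at day 0, 7.63, 7.59 and 7.96 at day 8, 8.58, 8.66 and 8.40 with BPA, and 8.30, 8.58 and 8.49 with NP. The control day8 arrays were the low ones, and the BPA and NP arrays did not overlap with them. Cbx7 fell by 1.08 ± 0.13 (SE) from day 0 to day 8 (adjusted p = 0.000147, limma). It was 0.82 ± 0.13 higher with BPA (adjusted p = 0.00286, limma) and 0.73 ± 0.13 higher with NP (adjusted p = 0.00796, limma). The NP call was lost when only the compared groups were fitted (adjusted p = 0.0586). The mean of its 2 probe sets past the filter changed by 0.14 at day 8 with no call, and the other of them was under background on 7 of 12 arrays. With that mean both agent calls ended, at 0.66 with BPA (adjusted p = 0.489) and 0.21 with NP (adjusted p = 0.862).

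Rnf2, the E3 ligase Ring1B, changed least among the PRC1 genes. Its signal was 9.85, 9.90 and 10.02 at day 0, 10.27, 10.32 and 10.14 at day 8, 9.98, 9.99 and 9.85 with BPA, and 10.14, 10.03 and 9.88 with NP. The day 8 control arrays were the highest, and the lowest of them stood barely above the highest NP array. The rise of 0.32 ± 0.10 (SE) at day 8 passed the test (adjusted p = 0.0266, limma), but not after median centring (adjusted p = 0.232), as a mean of its probe sets (0.192), with no filter on low values (0.0567) or with only the compared groups fitted (0.0722). It was also lost without control day0 replicate 1 or 2 (adjusted p = 0.0872 and 0.0705) or without control day8 replicate 1 or 2 (adjusted p = 0.0716 and 0.0827). Changes of -0.30 with BPA (adjusted p = 0.0599, limma) and -0.23 with NP (adjusted p = 0.171, limma) did not pass the test. Without control day8 replicate 3 the BPA change was -0.35 and passed the test, at an adjusted p that rounds to 0.05. The BPA change also passed after quantile normalization (adjusted p = 0.0409), with 40% of probe sets kept (0.0456) and with a robust prior variance (0.0208).

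Among the PRC2 core genes, Eed fell most. Eed is the subunit that binds methylated histone H3 and stimulates the enzyme. Its signal was 11.11, 11.09 and 10.80 at day 0, 9.44, 9.54 and 9.67 at day 8, 10.30, 10.14 and 10.31 with BPA, and 10.04, 10.08 and 10.28 with NP. The 6 arrays with an agent lay between the day 0 and day 8 controls and overlapped with neither. Eed fell by 1.45 ± 0.12 (SE), a 2.74-fold lower signal at day 8 (adjusted p = 1.90e-05, limma). It was higher by 0.70 ± 0.12 with BPA (adjusted p = 0.0037, limma) and by 0.59 ± 0.12 with NP (adjusted p = 0.0134, limma). The NP call was lost without control day8 replicate 1 (adjusted p = 0.0567) or NP day8 replicate 3 (adjusted p = 0.0523), and when only the compared groups were fitted (adjusted p = 0.0616).

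The catalytic subunits Ezh2 and Ezh1 moved in opposite directions at day 8. Ezh2 is the methyltransferase of dividing cells, and Ezh1 is the paralogue known from differentiated cells. The Ezh2 signal was 10.62, 10.51 and 10.49 at day 0, 10.04, 10.10 and 9.93 at day 8, 10.10, 10.12 and 10.31 with BPA, and 10.19, 10.10 and 10.17 with NP. Every day 8 array, with or without an agent, lay below the day 0 arrays, and the agent arrays overlapped with control day8. Ezh2 fell by 0.51 ± 0.09 (SE) at day 8 (adjusted p = 0.00139, limma), and its changes of 0.15 with BPA (95% interval -0.06 to 0.36) and 0.13 with NP (-0.08 to 0.34) did not pass the test. The Ezh1 signal was 5.59, 5.83 and 5.82 at day 0, 6.32, 6.10 and 6.64 at day 8, 6.76, 6.56 and 6.75 with BPA, and 6.42, 6.52 and 6.76 with NP. All day 8 arrays were above the day 0 arrays, and the 3 groups at day 8 overlapped. Ezh1 rose by 0.61 ± 0.15 (SE) at day 8 (adjusted p = 0.00931, limma), a call lost after quantile normalization (adjusted p = 0.124) and as a mean of its probe sets (adjusted p = 0.146). Its changes of 0.33 with BPA (-0.01 to 0.68) and 0.21 with NP (-0.14 to 0.56) did not pass the test, and the first did without control day8 replicate 3 (0.48, adjusted p = 0.045).

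Suz12, the subunit that holds the PRC2 core together, was highest with the agents on its main probe set. Its signal was 10.33, 10.34 and 10.39 at day 0, 9.80, 10.01 and 10.27 at day 8, 11.02, 10.75 and 10.78 with BPA, and 10.67, 10.77 and 10.44 with NP. The control day8 arrays spread widest, and every array with an agent was above every control array on this probe set. Not all its probe sets gave this order. On a dimmer one the control day0 mean was highest, at 6.47, beside 6.43 with BPA and 6.42 with NP. The change of -0.33 ± 0.14 (SE) at day 8 did not pass the test (adjusted p = 0.0805, limma), although it did without control day8 replicate 3 (-0.45, adjusted p = 0.0244) as a mean of its probe sets (-0.39, adjusted p = 0.0439) and with a robust prior variance (adjusted p = 0.0257). Suz12 was 0.82 ± 0.14 higher than control day8 with BPA (adjusted p = 0.00354, limma) and 0.60 ± 0.14 higher with NP (adjusted p = 0.0221, limma). The NP call was lost without control day8 replicate 1 or 2 (adjusted p = 0.0794 and 0.0645) or NP day8 replicate 1 or 2 (adjusted p = 0.0544 and 0.0846), and with only the compared groups fitted (0.0978).

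Promoter windows of Ezh2 and Suz12 are shown because they alone among the 12 held E2F letters. The motif was searched as TTTCCCGC, TTTGGCGC, TTTCGCGC or TTTGCCGC on both strands, and 2.26% of all windows hold it. It is printed in capitals. The Ezh2 window is chr6:47594981-47595280, minus strand, and the Suz12 window is chr11:79992856-79993155, plus strand, on GRCm38.p6.
Ezh2: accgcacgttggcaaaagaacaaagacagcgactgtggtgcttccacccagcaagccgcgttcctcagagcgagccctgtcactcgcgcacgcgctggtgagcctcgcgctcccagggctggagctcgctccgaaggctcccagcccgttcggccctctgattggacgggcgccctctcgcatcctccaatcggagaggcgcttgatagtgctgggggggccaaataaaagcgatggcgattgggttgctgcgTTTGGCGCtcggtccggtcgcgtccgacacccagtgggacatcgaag
Suz12: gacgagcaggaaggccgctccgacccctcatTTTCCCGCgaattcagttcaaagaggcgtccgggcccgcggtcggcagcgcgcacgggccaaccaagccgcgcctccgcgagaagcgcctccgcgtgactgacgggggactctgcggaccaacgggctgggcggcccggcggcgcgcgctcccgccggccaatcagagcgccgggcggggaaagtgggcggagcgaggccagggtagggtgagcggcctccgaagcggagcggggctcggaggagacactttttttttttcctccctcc
CCAAT, searched on both strands, was in windows of 6 of the 10 genes and in 37.4% of all windows. TATAAA, searched likewise, was in a window of Jarid2 and in 13.6% of all. GC content of the 12 windows ran from 45.7% to 72.7%.

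Both accessory genes of PRC2 fell at day 8 and were higher with either agent. Jarid2 encodes a protein that helps recruit PRC2 and is itself methylated by it. Its signal was 11.10, 11.14 and 10.81 at day 0, 9.31, 9.59 and 9.54 at day 8, 10.57, 10.42 and 10.20 with BPA, and 10.31, 10.38 and 10.41 with NP. The agent arrays lay between both control groups with no overlap. Jarid2 fell by 1.54 ± 0.13 (SE; adjusted p = 2.41e-05, limma), and was 0.92 ± 0.13 higher with BPA (adjusted p = 0.00178, limma) and 0.89 ± 0.13 higher with NP (adjusted p = 0.00342, limma). Mtf2, the Polycomb-like protein Pcl2 that binds CpG-rich DNA, was at 10.96, 10.69 and 10.74 at day 0 and 9.49, 9.79 and 9.45 at day 8. It was 10.34, 10.20 and 10.12 with BPA, and 10.35, 10.38 and 10.42 with NP. It was low on the control day8 arrays, and the NP arrays were just above the BPA arrays. Mtf2 fell by 1.22 ± 0.12 (SE; adjusted p = 4.34e-05, limma), and was 0.64 ± 0.12 higher with BPA (adjusted p = 0.00542, limma) and 0.80 ± 0.12 higher with NP (adjusted p = 0.00329, limma).

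**Figure D2:**
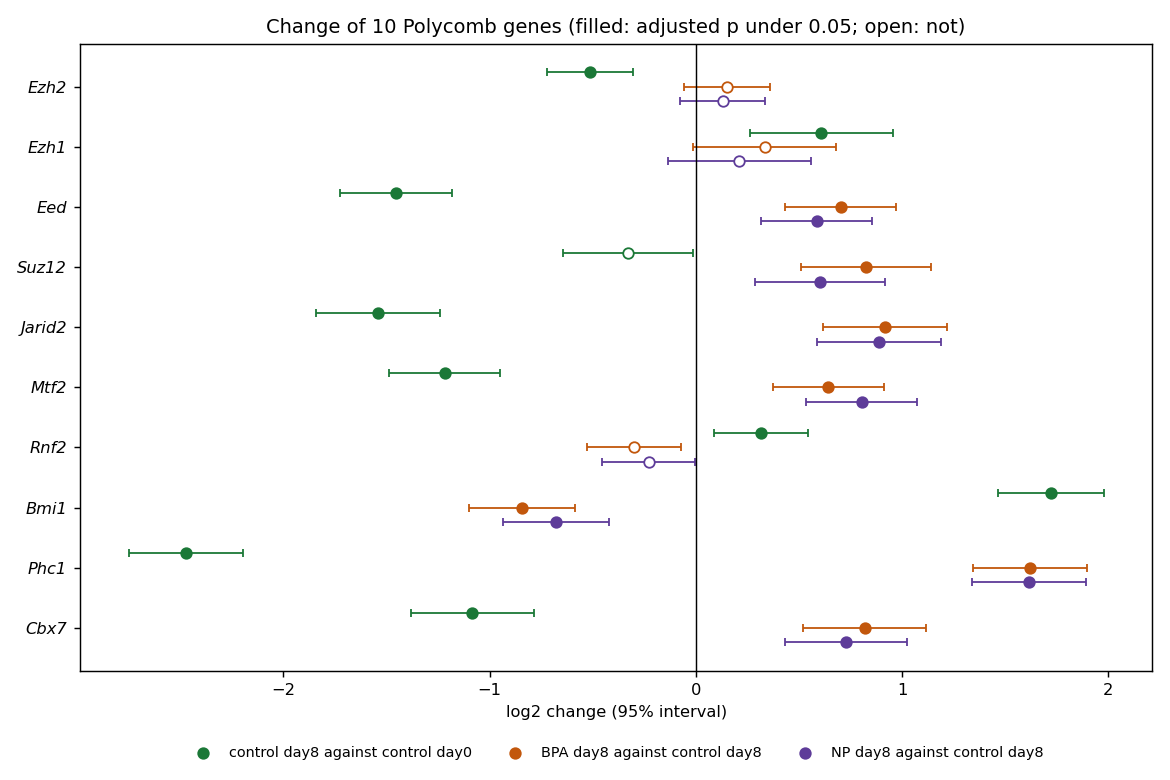
Log2 change (x axis) of the 10 genes (y axis) with its 95% interval, for control day8 against control day0 and for BPA or NP against control day8. Filled points passed the test at an adjusted p of 0.05 and open points did not. Phc1 shows the largest fall at day 8, -2.47, and Bmi1 the largest rise, 1.72; the 3 comparisons share the control day8 arrays.

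Bright probe sets of a gene gave the same direction as its main one in the differentiation comparison. The 3 probe sets of Jarid2 changed by -1.34 to -1.92. The 4 bright probe sets of Mtf2 changed by -1.07 to -1.63. Of its dim ones, 1 changed by -1.89 (adjusted p = 0.0142, limma) and 1, under background on 1 control day0 array, by 0.51 with no call (adjusted p = 0.617, limma). All 6 probe sets of Suz12 changed by -0.27 to -0.60, and 1 of the 6 passed the test (-0.60, adjusted p = 0.0286, limma). With BPA, the 6 changed by 0.55 to 0.88 and 4 of them passed. With NP they changed by 0.52 to 0.67, and those at adjusted p of 0.0921, 0.112 and 0.345 (limma) did not pass. The dimmest Jarid2 probe set was 0.92 higher with BPA and 0.88 with NP, with no call (adjusted p = 0.057 and 0.0945, limma). The 7 probe sets of Cbx7, Eed, Ezh1 and Rnf2 under the filter were not tested, and they were under background on at least 1 array of every group.

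**Figure D3:**
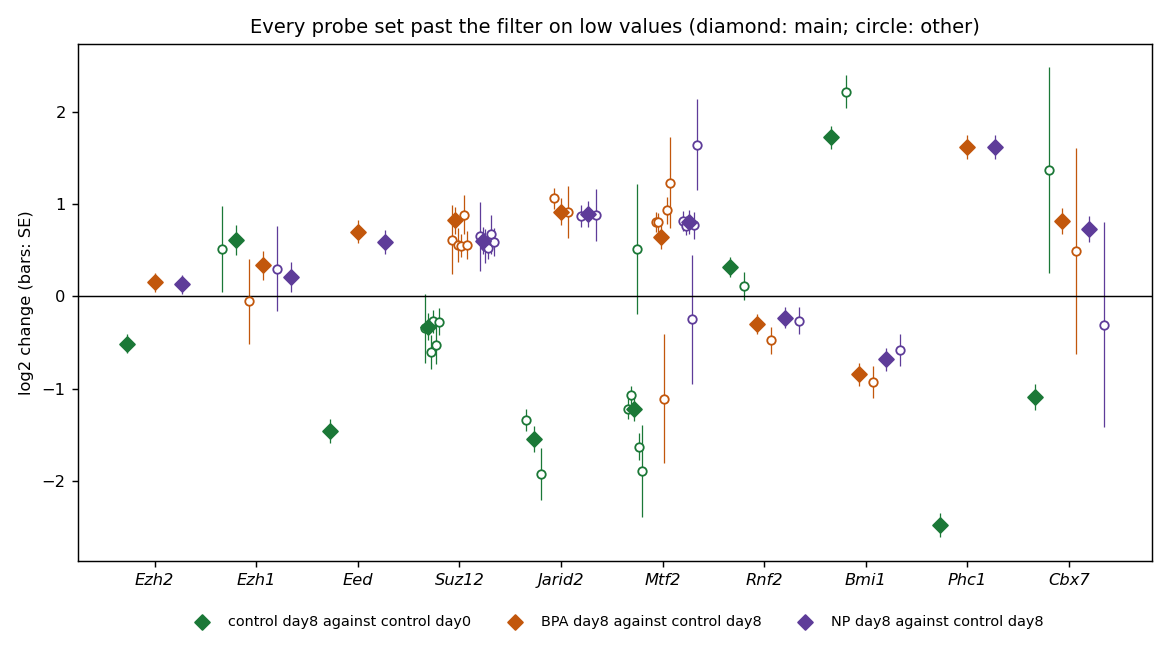
Log2 change with its SE (y axis) for all 26 probe sets past the filter on low values, by gene (x axis) and comparison (colour). Diamonds are the main probe sets and circles the others. The probe sets of Jarid2 and the bright ones of Mtf2 lie close together, while the dim second probe set of Cbx7 has a wide error.

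NP and BPA gave levels that the test did not tell apart for any of the 10 genes. No gene of the 10 passed the test in NP against BPA, none had an unadjusted p under 0.05, and 0.00765% of all genes tested changed by limma, with 1095 genes at an unadjusted p under 0.05. The largest difference was that of Suz12, -0.22 (95% interval -0.54 to 0.09). All 10 intervals lay within -0.54 to 0.43. For Phc1 the difference was 0.00 (95% interval -0.28 to 0.27). Mtf2 alone had values that did not overlap between the agents, with a difference of 0.16 (-0.11 to 0.43), beside 17.0% of all genes without overlap. For Ezh2 (-0.23 to 0.19), Ezh1 (-0.47 to 0.22) and Rnf2 (-0.15 to 0.30) the interval allows differences as large as the NP change from control day8. Those changes were 0.13, 0.21 and -0.23. For the other genes the intervals leave room for differences smaller than those from control day8. None of the intervals shows that the agents act alike.

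Against the undifferentiated cells, Phc1, Eed, Jarid2, Mtf2 and Ezh2 were lower in both agent groups and Bmi1 and Ezh1 were higher. With BPA, 3 genes were higher and 5 lower than control day0, while 33.6% of all genes changed. With NP, 2 were higher and 5 lower, while 32.1% of all genes changed. Phc1 was lower by 0.86 in both groups, changes of -0.86 ± 0.12 (SE) each (adjusted p = 0.000839 with BPA and 0.000863 with NP, limma), and Bmi1 was higher by 0.88 ± 0.11 with BPA and 1.04 ± 0.11 with NP. Eed changed by -0.75 with BPA and -0.87 with NP, and Jarid2 by -0.62 and -0.65. A second bright probe set of Jarid2 changed by -0.28 with BPA, with no call (adjusted p = 0.12, limma), and by -0.47 with NP (adjusted p = 0.0198, limma). Ezh1 changed by 0.94 and 0.82, and both calls were lost as a mean of probe sets (adjusted p = 0.099 with BPA and 0.0629 with NP). Suz12 was 0.50 ± 0.14 above day 0 with BPA (adjusted p = 0.0224, limma), a call lost after median centring (adjusted p = 0.0873), as a mean of probe sets (adjusted p = 0.168), without control day0 replicate 1 or 2 (adjusted p = 0.0626 and 0.0599) and without BPA day8 replicate 1 (adjusted p = 0.0784). With NP its change of 0.27 did not pass (adjusted p = 0.169, limma). None of the other probe sets of Suz12 passed against day 0 with BPA (adjusted p = 0.138 to 0.896, limma) or NP (0.164 to 0.872). Ezh2 changed by -0.36 with BPA, which was lost without control day0 replicate 1 (adjusted p = 0.0546), BPA day8 replicate 1 (0.0518) or 2 (0.0513), and by -0.38 with NP. After quantile normalization both Ezh2 calls ended (adjusted p = 0.1 with BPA and 0.071 with NP), and that with BPA also with only the compared groups fitted (0.0548). Mtf2 changed by -0.58 with BPA and by -0.41 with NP, the latter lost without control day0 replicate 1 (adjusted p = 0.093), NP day8 replicate 1 (0.0739) or 2 (0.0658). The Mtf2 call with NP also ended after quantile normalization (adjusted p = 0.108), with no filter on low values (0.0528), as a mean of probe sets (0.127) and with only the compared groups fitted (0.0502). Another bright probe set of Mtf2 changed by -0.27 with BPA and -0.30 with NP, with no call (adjusted p = 0.0844 and 0.0568, limma). Cbx7 (-0.27 and -0.36) and Rnf2 (0.02 and 0.09) did not pass in either group, and Cbx7 did with NP without control day8 replicate 3 (adjusted p = 0.0388), with 40% of probe sets kept (0.047) and with a robust prior variance (0.0347).

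Ordered by group mean, the lowest group was control day8 for Phc1, Eed, Jarid2, Mtf2, Cbx7, Ezh2 and Suz12, and control day0 for Bmi1, Rnf2 and Ezh1. The spread between the highest and the lowest group mean ran from 0.32 for Rnf2 to 2.47 for Phc1. Neighbouring BPA and NP groups did not differ beyond their spread in the test for any of the 10. The neighbours control day8 and NP did not differ for Ezh2 or Ezh1, nor BPA and control day0 for Cbx7, nor control day0 and either neighbour for Suz12, and for Rnf2 no neighbours in the order differed by the test.

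The genes with the nearest profile to each changed member were found by the mean absolute difference of gene-centred log2 values over 12 arrays. Nearest to Phc1 were Gsta4, a glutathione transferase (0.127), and Zscan10, a zinc finger factor of ES cells (0.129), with a median distance of 0.826 to all genes. Nearest to Bmi1 were B3gnt5 (0.0895) and Mmd (0.115). Eed lay nearest to Lyar (0.0574) and Ppp2r2d (0.0863), and Jarid2 to Smarcad1 (0.0860) and Nat10 (0.0985). Mtf2 lay nearest to Dbf4 (0.102) and Hspa4 (0.109), Cbx7 to Glud1 (0.0874) and Hprt (0.0875), Ezh2 to Dnaja2 (0.0560) and Phtf2 (0.0627), Ezh1 to Plpp2 (0.0778) and Carhsp1 (0.0778), and Rnf2 to Ctbp1 (0.0468) and Tbc1d19 (0.0472). Among the 10 genes themselves, Jarid2 and Mtf2 were the closest pair, at 0.131, and the member nearest to Eed was Jarid2, at 0.141. These distances describe likeness on these arrays.

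Other PRC1 genes changed in both directions at day 8. Of 25 listed, 22 were tested, of which 11 rose and 6 fell, with a median of 0.61 beside 0.12 over all genes. These 17 calls of 22 stand beside 48.7% of all genes tested. Without control day0 replicate 2 or control day8 replicate 1, 11 of the 22 were called, a share near that background of the full fit. Over all genes, leaving out each array in turn gave 5515 to 6285 calls, beside 6365 in the full fit. The largest rises were Pcgf5, a paralogue of Bmi1, by 2.14 ± 0.19 (SE), and Phc2, a paralogue of Phc1, by 2.12 ± 0.23, followed by Pcgf1 and Yaf2. Phc2 went from 7.11 to 9.23 in mean log2 signal while Phc1 went from 10.98 to 8.50. Pcgf1 was under background on all 3 day 0 arrays, so its rise was at least 1.58-fold against background, and its call was lost with values under background set to it (adjusted p = 0.198). The Pcgf1 call was also lost without control day0 replicate 2 or control day8 replicate 1 or 3, at adjusted p up to 0.0803. Yaf2 rose by 1.97 ± 0.20. The largest falls were L3mbtl2 (-1.69 ± 0.16), Usp7, a deubiquitinase (-1.11 ± 0.12), and Cbx6 (-1.04 ± 0.11). Ring1, the paralogue of Rnf2, was singled out after its values were seen: its change of 1.16 passed the test at an adjusted p of 0.0472, a call lost without control day0 replicate 2, any of the day 8 control, BPA or NP replicates, at adjusted p up to 0.128.

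Among the 8 other PRC2 genes, 3 rose and 2 fell at day 8, beside the same 48.7% of all genes, with a median of 0.13. Lcor rose by 2.23 ± 0.19 (SE) and Lcorl by 1.09 ± 0.17, whose loci also encode the PALI partners of PRC2, and the histone chaperone Rbbp7 rose by 0.60 ± 0.12. Epop fell by 1.04, a change of -1.04 ± 0.18, and Rbbp4 by 0.32, a change of -0.32 ± 0.08 whose call was lost after quantile normalization (adjusted p = 0.122).

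Partner genes were also compared between each agent and control day8. With BPA, 5 of 22 PRC1 genes were higher and 2 lower, or 31.8% beside 22.2% of all genes, and 4 in all without BPA day8 replicate 1. The largest were Mga (0.78), L3mbtl2 (0.73), Bcor (0.71), Yaf2 (-1.12) and Phc2 (-0.87). Of these, L3mbtl2 and Yaf2 stayed called on leaving out any array. The call of Mga ended when replicate 3 of control day8 or replicate 1 or 2 of BPA day8 was left out (highest adjusted p, 0.102). That of Phc2 ended on omission of replicate 1 or 2 of control day8 or replicate 1 or 3 of BPA day8 (highest, 0.0772), and Bcor without any of 10 arrays, all but NP day8 replicates 2 and 3 (up to 0.129). With NP, 3 were higher and Yaf2 was lower, or 18.2% beside 14.2% of all genes, and none was called without control day8 replicate 1 or NP day8 replicate 3. The 3 were L3mbtl2 (0.57), Usp7 (0.53) and Pcgf6 (0.51), and Yaf2 changed by -0.91; all 4 were lost without control day8 replicate 1 or 2 or NP day8 replicate 3 (adjusted p up to 0.145), and some of them without NP day8 replicate 1 or 2. Of the 8 PRC2 partners, Phf19 (1.08), Epop (1.0) and Aebp2 (0.52) were higher with BPA, or 37.5% beside 22.2% of all genes. With NP only Epop (0.90) was higher, or 12.5% beside 14.2%. Leaving out each array in turn gave 0 to 2 calls of the 8 with NP. Phf19 was no longer called on omission of replicate 3 of control day8 or replicate 2 or 3 of BPA day8 (highest adjusted p, 0.0696), Aebp2 as a mean of probe sets (0.569), and Epop with NP without NP day8 replicate 3 (0.0514). In NP against BPA none of the 22 PRC1 and 8 PRC2 genes passed by limma, and 1 had an unadjusted p under 0.05.

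**Figure D4:**
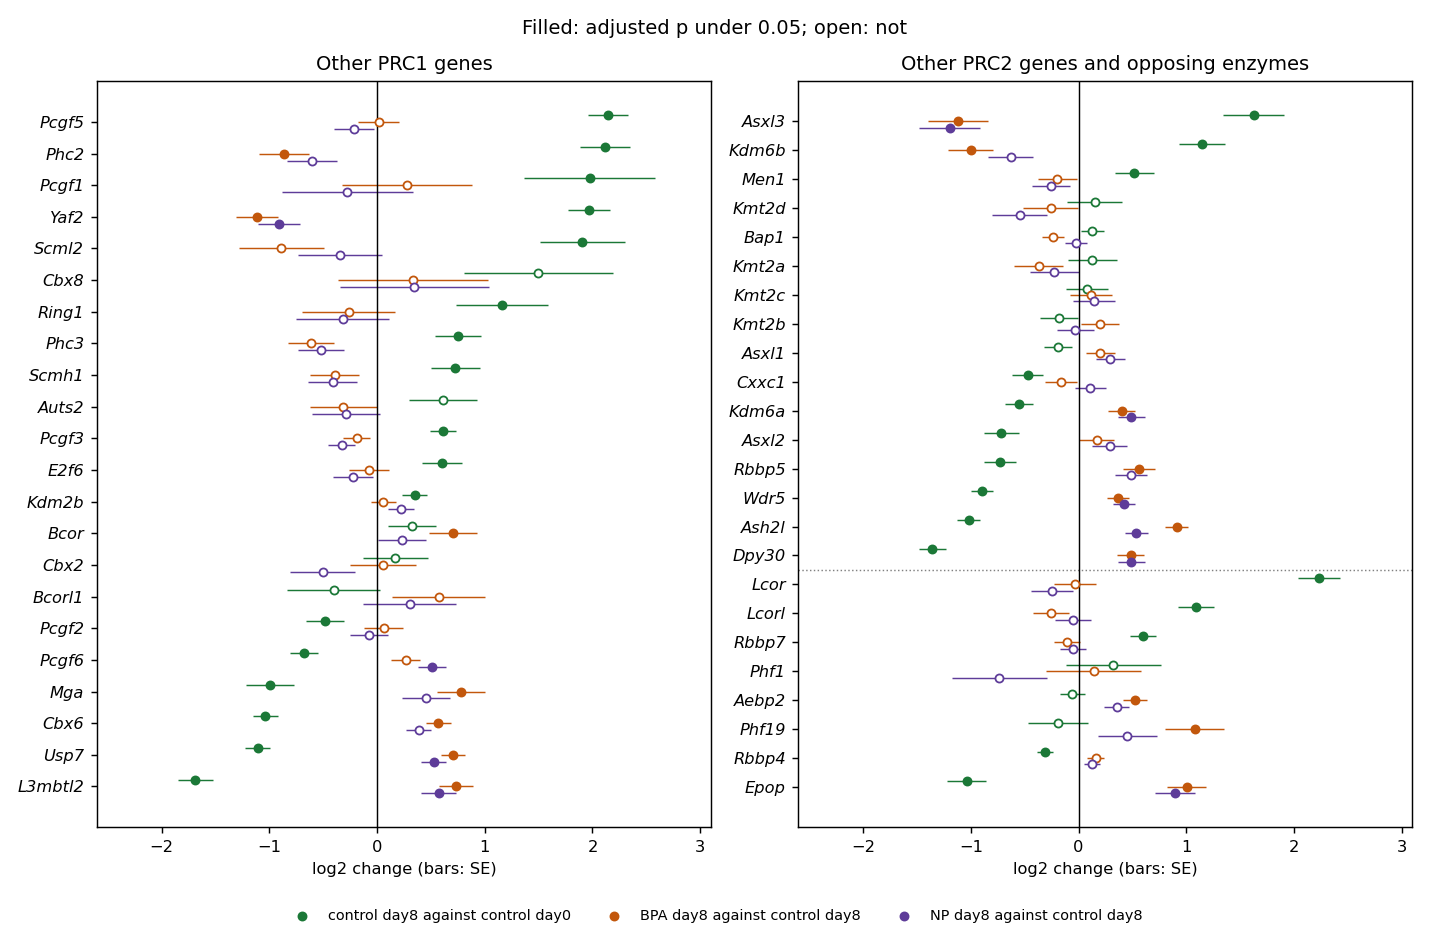
Log2 change with its SE (x axis) of the tested PRC1 partner genes (left). The right panel shows genes that oppose Polycomb (above the dotted line) and PRC2 partners (below it). The 3 comparisons share the control day8 arrays. Filled points passed the test. Pcgf5 (2.14) and Phc2 (2.12) lie at the top of the PRC1 genes for control day8 against control day0, and L3mbtl2 (-1.69) at the bottom.

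The genes listed as opposing Polycomb encode enzymes that remove its marks or place activating methyl groups, or partners of such enzymes. Of the 16 tested, 3 rose and 7 fell at day 8, with a median of -0.19. These calls are 62.5%, beside 48.7% of all genes. As means of probe sets, 6 were called. The largest falls were subunits of the activating methyltransferases, Dpy30 (-1.36 ± 0.12 SE), Ash2l (-1.02 ± 0.11) and Wdr5 (-0.90 ± 0.10), and Ash2l was lost as a mean of probe sets (adjusted p = 0.106). Asxl3 (1.63 ± 0.28) and the demethylase Kdm6b (1.15 ± 0.21) rose. Men1 rose by 0.52, a call lost after quantile normalization (adjusted p = 0.261) and without control day0 replicate 2 or 3, control day8 replicate 3, any BPA array or NP day8 replicate 2 (up to 0.113). With BPA 5 were higher and 2 lower (43.8% beside 22.2% of all genes), and with NP 4 were higher and Asxl3 lower (31.2% beside 14.2%). Ash2l was 0.91 higher with BPA and 0.53 with NP, Kdm6b changed by -1.0 with BPA, and Asxl3 by -1.12 and -1.20. Rbbp5 (0.56) and Dpy30 (0.48) followed with BPA, and Kdm6a (0.49) and Dpy30 (0.49) with NP. As a mean of probe sets Kdm6a changed by -0.08 with NP, with no call, so its direction depended on the probe sets used. The Kdm6a call with NP also ended with no filter on low values and with only the compared groups fitted. Ash2l and Kdm6b with BPA stayed called on leaving out any array; as means of probe sets they were not called (adjusted p = 0.163 and 0.104). The other calls named here for BPA or NP against control day8 were lost without at least 2 of the arrays compared, at adjusted p up to 0.108. These counts fell to 2 with BPA without control day8 replicate 1 or 2, and to 0 with NP without NP day8 replicate 2.

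Developmental regulators known as Polycomb targets in ES cells were listed as 30 genes, of which 28 are on the array and 21 passed the filter on low values. At day 0 the mean log2 signal of the 21 was 3.60 ± 0.40 (SD, n = 3), near the background of 3.41, and 4 of them were under background on all day 0 arrays. A regulator silent at day 0 could pass the filter only through the groups where it is high, so the counts over the 21 are given as a description. Of the 21, 14 rose and 2 fell at day 8 and 5 did not pass the test. With no filter on low values, 13 of the 28 rose and 1 fell, while 32.2% of all genes changed in that fit. Hand2, a heart mesoderm factor, was under background on all day 0 arrays and rose at least 86.5-fold against it, to a mean log2 signal of 9.84. The endoderm factor Sox17 and the factor Gata3 rose by 5.69 ± 0.25 and 5.52 ± 0.59 (SE), or by 5.30 and 3.67 with background as the floor. Pax6 fell by 1.44, a change of -1.44 ± 0.37, and Cdkn2a changed by -0.93, which was lost without control day0 replicate 1 or 2 or control day8 replicate 1 or 2 (adjusted p up to 0.125). With BPA 5 of the 21 were lower and none higher (23.8% beside 22.2% of all genes), and with NP 4 were lower and none higher (19% beside 14.2%). With no filter 3 of the 28 were lower with each agent and none higher, while 12.4% of all genes changed with BPA and 6.5% with NP. Hand2 changed by -4.72 ± 0.73 with BPA and -4.19 ± 0.73 with NP, the latter not called as a mean of probe sets (adjusted p = 0.0548). Isl1 changed by -2.35 with BPA and -1.80 with NP, and Gata6 by -1.94 and -1.51. Msx1 changed by -2.36 with BPA, a call lost without 9 of the 12 arrays, all but control day0 replicates 1 and 3 and NP day8 replicate 3 (adjusted p up to 0.141). Isl1 with NP was lost without any control day8 array or NP day8 replicate 2 or 3 (up to 0.108). The BPA count was 3 on omission of replicate 1 or 2 of control day8 or replicate 1 or 3 of BPA day8, and the NP count 2 without control day8 replicate 1 or 3 or NP day8 replicate 2 or 3.

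Against control day0, 7 PRC1 partners were higher and 4 lower with BPA (6 in all without control day0 replicate 2), and 5 were higher and 4 lower with NP. These are 11 and 9 of 22, beside 33.6% and 32.1% of all genes. Pcgf5 was 2.16 ± 0.19 (SE) higher with BPA and 1.93 ± 0.19 with NP, and L3mbtl2 changed by -0.95 and -1.12. Of the 8 PRC2 partners 5 were higher with BPA (62.5%) and 3 with NP (37.5%), beside the same shares of all genes. Lcor led them at 2.20 and 1.99. Of the 16 opposing genes 4 were lower with BPA (25%) and 3 with NP (18.8%), under the 33.6% and 32.1% of all genes changed. Dpy30 led them at -0.87 in both. Of the 21 target regulators past the filter, 12 were higher and 2 lower with BPA, and 12 were higher with NP. A regulator silent at day 0 could pass the filter only through day 8 groups, so these counts are a description. With no filter, 10 of 28 were higher and 1 lower with BPA, beside 20.1% of all genes changed. With NP 10 of the 28 were higher and 0 lower, beside 19.5%. Sox17 changed by 5.59 and 6.07 before background is taken as its floor, and by 5.20 and 5.68 after.

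Markers of cell types also differed between groups, and not all in the same way. All 12 ES cell markers fell at day 8, beside 48.7% of all genes changed in either direction. All 12 were higher with BPA and with NP than in control day8, beside 22.2% and 14.2% of all genes changed. Their mean log2 signal was 10.57, 7.72, 9.94 and 9.76 in control day0, control day8, BPA and NP. Their summed signal was 30890 to 31567 at day 0, 3663 to 7491 in control day8, 21885 to 22731 with BPA and 17848 to 23466 with NP. Fibroblast markers summed to 7329 to 9334 at day 0, 6015 to 8998 in control day8, 729 to 921 with BPA and 630 to 911 with NP. Of those 11 markers 6 fell and 4 rose at day 8, or 90.9% beside the same 48.7% of all genes. With BPA 8 were lower (72.7%) and with NP 7 (63.6%), beside the same 22.2% and 14.2%. None of the 11 was under background on all arrays of a group. Yolk sac endoderm markers had means of 3.31, 9.39, 9.0 and 9.55, cardiac muscle markers 3.42, 7.82, 5.36 and 5.74, and endothelial and blood markers 2.50, 6.54, 4.24 and 4.20, in the same order of groups. None of the 10 yolk sac endoderm markers passed the test with BPA or NP against control day8 by limma, with medians of -0.42 and 0.04, and 1 and 0 of them had an unadjusted p under 0.05. The cardiac mean of NP day8 was 6.97, 4.89 and 5.35 on its arrays (SD 1.09, against 0.36 with BPA), and the endothelial and blood mean was 5.30, 3.73 and 3.56 (SD 0.96, against 0.76 with BPA). Replicate 1 of NP day8 was thus the highest of its group in both lists. Without it, 5 of the 10 Polycomb genes were higher with NP than control day8 and 1 lower. Over all genes, leaving out each array in turn gave 802 to 1874 changed with NP. At day 0 these lists had 3 of 10, 2 of 10 and 3 of 8 markers under background on all arrays. Proliferation genes had means of 10.34, 10.07, 10.17 and 10.22. The part of these shifts in the Polycomb results was not tested. In bulk RNA, fewer cells of a type and less RNA per cell cannot be told apart.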

How the data were processed

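Log2 values of the MAS5 signal were deposited by the authors in a table of 45101 probe sets on 12 arrays; MAS5 is named in the submitters' processing notes, its version and settings are not given in the sources used here, and the log2 scale was found from the values. On each array the mean of the linear signals, trimmed by 2% at each end, was 100.0. MAS5 does not share information between arrays, and the values were used as deposited. Of the probe sets, 64 control ones were left out; 34958 have 1 gene symbol in the platform annotation, 932 several and 9211 none listed. The 60% with the highest mean were kept (27023), and 1 per gene, the brightest, was tested (13067 genes).

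A mean per group was fitted over 12 arrays with limma 3.58.1 in R 4.3.3 (8 residual degrees of freedom), with 6 contrasts, two-sided tests and Benjamini-Hochberg adjustment over all genes, threshold 0.05. The fit was tested on simulated data with known shifts. Depending on the comparison, 46% to 51% of shifts of 1 log2 unit and 68% to 86% of shifts of 2 were called. Among the other genes 5 to 10 were called. A gene that did not pass the test is thus not shown to be unchanged. Figures were drawn with matplotlib 3.10.9. Promoter sequences are RefSeq's; all 10 genes matched by symbol. The number of arrays limits the precision.

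The members and lists were chosen with earlier results of these data known. Genes named are the 10 members, up to 3 genes of each list per direction and comparison with the largest change among those past the threshold, and the 2 nearest profiles of each changed member. Same-numbered replicates of different groups deviated together with r of -0.010 to 0.081, so the numbers were not taken as pairs. Alternatives were quantile normalization, median centring, the filter, a pseudocount of 16, means of probe sets, other probe sets, a robust prior, only the compared groups, a replicate block and leaving out each array; setting values under background to it was added after the data were seen.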

Additional observations from a re-analysis of the deposited data

How the results depend on the processing

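Over 1416 recomputations of the 60 member results (10 genes in 6 comparisons), 1303 kept their direction and side of the threshold, 66 lost a call, 12 gained one and 35 changed sign. Phc1 lost no call, and Bmi1 lost 1, with its second probe set. The cause of each change below was not tested. The replicate block, run although the replicate numbers do not pair the samples, changed none of the 60 member calls; with it 6175 genes changed between control day8 and control day0 and 0 between NP and BPA. The count of genes changed in NP against control day8, 1852, was 1182 with no filter on low values and 645 with only the compared groups. Leaving out each array in turn gave 802 to 1874 there, 1822 to 2949 in BPA against control day8, and 0 to 3 in NP against BPA. The NP against BPA count of 1 was 4 with no filter, 3 with means of probe sets, and 0 with median centring, 40% of probe sets kept, a pseudocount of 16, the robust prior, only the compared groups, and values under background set to it.

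Sign changes fell mostly on dim probe sets or on differences near 0, and none of the values below passed the test. Mean of probe sets: Cbx7 0.14 (control day8 against day0), 0.80 (BPA against day0) and 0.35 (NP against day0), Rnf2 -0.173 and -0.0309 against day0, and Ezh1 0.12 in NP against BPA. Other probe sets of Cbx7 gave 1.36 (control day8 against day0), 1.86 and 1.06 (BPA and NP against day0) and -0.31 (NP against control day8). Those of Mtf2 gave 0.51 (control day8 against day0), -1.10 and -0.25 (BPA and NP against control day8) and 0.26 (NP against day0). Those of Suz12 gave -0.0421 and -0.0525 against day0, of Rnf2 -0.36 and -0.15 against day0, and of Ezh1 -0.0536 in BPA against control day8. In NP against BPA, other probe sets gave 0.35 for Ezh1, 0.0333 and 0.0320 for Suz12, and -0.0364 and -0.163 for Mtf2. Median centring gave -0.0575 for Rnf2 in BPA against day0 and 0.0061 for Phc1 in NP against BPA. Leaving out an array gave Rnf2 -0.022 to 0.0637 in BPA against day0 and, in NP against BPA, Ezh2 -0.0576 to 0.0434, Jarid2 -0.127 to 0.0602 and Phc1 -0.0979 to 0.0924.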
